A study of Mus musculus with 2 samples.

Results

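The inhibitor of DNA binding genes *Id1*, *Id2*, *Id3* and *Id4* were examined in single mouse embryonic stem cells (mESCs), as 4 of the 31053 genes counted. They were chosen by name as the *Id* family, whose members are known BMP target genes, and with earlier results of these data known. ID proteins carry a helix-loop-helix dimerization domain but lack the basic region that contacts DNA, so they hold E proteins such as TCF3, TCF4 and TCF12 in complexes that do not bind DNA. In mESCs grown with LIF, BMP ligands act through the receptor-activated SMAD1 and SMAD5 and the shared SMAD4 to switch on *Id* genes, and ID proteins restrain neural differentiation.

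The cells were feeder-free E14 mESCs, either wild type (WT) or *Smad1/5* double knockout cells made with CRISPR-Cas9 (S1/5 dKO). Both were grown on gelatin in medium with 15% FBS and 1000 U/ml LIF, and 1 Chromium 3′ v3 library was made per genotype, without replicates. Transcripts were counted as unique molecular identifiers (UMIs). Barcodes counted as cells when 1000 or more genes were detected and mitochondrial genes took 5% of UMIs or less. By this rule 2236 WT cells (95965242 UMIs) entered the analysis, and 2910 cells (109020533 UMIs) of the other library. The labels do not say which knockout line was used, or whether it grew from 1 clone. With 1 library per genotype, no difference between the genotypes can be tested, and a difference between cultures, lines or libraries cannot be told apart from one between genotypes. Intervals are exact 95% intervals and cover nothing but counting error, while ranges over subsets of cells or random draws are named as such.

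The knocked-out genes were read first: *Smad1* had 1285 UMIs in WT and 1000 UMIs in the other library, a log2 ratio of −0.55 (−0.67 to −0.43). *Smad5* had 581 UMIs in WT and 991 UMIs in the other library, a log2 ratio of 0.59 (0.44 to 0.74). Its mRNA was thus higher in the library labelled as its knockout. Whether these mRNAs report on the knockout was not tested, since a CRISPR edit can leave the mRNA in place, and the library is called the S1/5 dKO-labelled library throughout. The libraries shared 0 cell barcodes. Median depth was 38662 UMIs per WT cell and 34548.5 UMIs per cell labelled S1/5 dKO. The 12 pluripotency factors, led by *Pou5f1* and *Zfp42*, summed to 3355 CPM (counts per 1000000 UMIs) in WT and 3393 CPM in the S1/5 dKO-labelled library. Markers of other cell types were sparse: 6 endoderm markers summed to 16.5 and 11.6 CPM, 5 mesoderm markers to 2.28 and 1.80 CPM, and 6 fibroblast markers to 1.19 and 1.32 CPM, with *Lum* at 0 in both.

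*Id1* lies on chromosome 2 of GRCm38 (152736251 to 152737410, plus strand), *Id2* on chromosome 12 (25093799 to 25097140, minus strand), *Id3* on chromosome 4 (136143497 to 136145755, plus strand) and *Id4* on chromosome 13 (48261228 to 48266026, plus strand). Their annotated transcripts had 0 stretches of 31 bases in common, so reads of that length or longer cannot match 2 members exactly. *Id2* shared 39 of its 2433 such stretches with the pseudogene *Gm6175*, *Id4* shared 2 of 3819 with other genes, and *Id1* and *Id3* shared 0 with any other gene. *Id4* is overlapped on the opposite strand by *A330033J07Rik* and *Gm49291*, which had 0 UMIs in both libraries.

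The members' promoters were read for short sequences that SMAD proteins are known to bind. These were the palindrome GGCGCC, the box GGAGCC with its reverse complement GGCTCC, and the box CAGAC with its reverse complement GTCTG. Whether such sequences relate to the levels or correlations of the members was not tested. RefSeq promoter windows were available for *Id2*, *Id3* and *Id4* (GRCm38.p6), and *Id1* was not read. The 250 bases before the start in RefSeq held the palindrome in *Id2* and *Id4*, the GGAGCC box on either strand in all 3 genes, and the CAGAC box on both strands in *Id3*, and no match overlapped another. Among 32851 promoter windows of this length, 9.59% held the palindrome, 26.0% the GGAGCC box and 42.2% the CAGAC box on at least 1 strand, so the letters are common and a match is a description, not a binding site. The stretches with matches follow, 5′ to 3′ on the strand of the gene and with the matched letters in capitals. Those inside an annotated UTR, all of *Id3* and the second of *Id2*, are cut to 30 bases. The *Id4* stretches, whose matches lie outside any annotated UTR, are also cut to 30 bases. RefSeq's start differs from the gene bounds given above, and all stretches of *Id2* and *Id3* lie inside those bounds, while those of *Id4* lie before them.
Id2, chr12:25096254-25096342, minus strand: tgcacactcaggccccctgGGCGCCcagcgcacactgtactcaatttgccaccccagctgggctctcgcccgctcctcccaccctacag
Id2, chr12:25096163-25096192, minus strand: gtatgatggacgGGAGCCcttccaccaatg
Id3, chr4:136143632-136143661, plus strand: cgaGGCTCCgctgtcctcggcgtCAGACca
Id3, chr4:136143741-136143770, plus strand: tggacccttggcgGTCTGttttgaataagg
Id4, chr13:48260956-48260985, plus strand: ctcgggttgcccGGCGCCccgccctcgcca
Id4, chr13:48261086-48261115, plus strand: acaaatactgctgtgccGGAGCCgagcgac

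All 4 *Id* genes had lower mRNA levels in the S1/5 dKO-labelled library, and *Id2* differed most. *Id1* was counted 30997 times in WT (323 CPM, 319 to 327) and 17522 times in the S1/5 dKO-labelled library (161 CPM, 158 to 163). *Id3* was counted 9906 times (103 CPM, 101 to 105) and 6707 times (61.5 CPM, 60.1 to 63.0). *Id2* was counted 5477 times (57.1 CPM, 55.6 to 58.6) and 1833 times (16.8 CPM, 16.1 to 17.6). *Id4* was close to the limit of detection, with 191 UMIs (1.99 CPM, 1.72 to 2.29) and 146 UMIs (1.34 CPM, 1.13 to 1.57). The order of the levels was *Id1*, *Id3*, *Id2* and *Id4* in both libraries, and no neighbours in that order had overlapping counting intervals. Since the kit counts each molecule once near its 3′ end, these levels need no correction for transcript length.

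The log2 ratio of the S1/5 dKO-labelled library over WT was −1.76 (−1.84 to −1.69) for *Id2*, the fourth lowest of the 13654 genes that had 50 or more UMIs in all. It was −1.01 (−1.03 to −0.98) for *Id1*, at rank 58 from the lowest, −0.75 (−0.79 to −0.70) for *Id3*, at rank 167, and −0.57 (−0.89 to −0.25) for *Id4*, at rank 379. *Id1* and *Id2* were at least 2-fold lower, 2 of 4 members beside 0.432% of all 13654 genes, and *Id1*, *Id2* and *Id3* were at least 1.5-fold lower, beside 2.61% of all genes. *Id1* stood at the 2-fold line and came out just short of it, at −0.997, under TMM scaling. *Id4* was 1.49-fold lower (1.19 to 1.86), and when each cell was thinned to 10000 UMIs its ratio fell to −0.25. The median log2 ratio over all genes was −0.01, with the fifth percentile at −0.44.

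The difference was present at every depth. When the cells of each library were divided into quartiles by their total UMIs, *Id1* ran from 296 to 392 CPM over the WT quartiles and from 133 to 192 CPM over the quartiles of the S1/5 dKO-labelled library. *Id2* ran from 49.98 to 76.5 CPM in WT and from 14.3 to 23.6 CPM in the other library. *Id3* ran from 92.1 to 131 CPM and from 55.0 to 67.0 CPM. None of these ranges overlapped between the libraries. Barcodes with 10 to 100 UMIs, which hold free RNA and no cell, carried *Id1* at 231 CPM (209 to 255) in WT and 159 CPM (142 to 178) in the S1/5 dKO-labelled library. They carried *Id3* at 99.8 CPM (85.6 to 116) and 65.9 CPM (55.0 to 78.3), and *Id2* at 38.5 CPM (29.9 to 48.9) and 14.8 CPM (9.92 to 21.3). These intervals held the level in cells for *Id3* in both libraries and for *Id1* and *Id2* in the S1/5 dKO-labelled library, and lay below it for *Id1* and *Id2* in WT. *Id4* in these barcodes was at 4.53 CPM (1.96 to 8.93) in WT, on 8 UMIs. In the S1/5 dKO-labelled library it was at 0.511 CPM (0.0129 to 2.85), on 1 UMI. Both intervals held the level of *Id4* in cells. No cell type known to lack *Id* mRNA was at hand in these cultures, and the share of UMIs in cells that came from free RNA was not tested.

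Other genes of the BMP pathway differed in both directions. Of 16 other BMP feedback and target genes, 14 had at least 50 UMIs, and 10 of these had an interval below 0, 4 spanned 0 and 0 lay above it, with a median log2 ratio of −0.44. Of all 13654 genes, 19.6% had an interval below 0 and 20.7% above it, and their median was −0.01. *Dusp9*, a MAP kinase phosphatase, went from 3571 UMIs to 2772 UMIs (log2 ratio −0.55). *Smad6*, an inhibitory SMAD, went from 183 UMIs to 131 UMIs (−0.67), and *Bambi*, a decoy receptor, from 1451 UMIs to 1305 UMIs (−0.34). *Smad7*, the other inhibitory SMAD, was nearly level at 7229 UMIs and 7919 UMIs (−0.05). *Gata3* was the lowest of those 14 genes at −1.01 (−1.61 to −0.42), on 69 and 39 UMIs. The 5 receptors that could be compared had a median of −0.003, *Smad4* was at −0.05 (−0.12 to 0.02), and the ligand *Bmp4* was higher in the S1/5 dKO-labelled library, with 7645 UMIs against 5249 UMIs (0.36). Of the E proteins that ID proteins bind, *Tcf3* was at −0.02, *Tcf4* at 0.13 and *Tcf12* at −0.23. Of 12 pluripotency factors, 8 had an interval above 0 and 2 below 0, and all but *Dppa3* (0.96) were within 1.5-fold. Of 6 neural genes, 3 had enough UMIs, and *Pax6* was at −0.65, *Sox1* at 0.19 and *Nes* at −0.003.

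**Figure D1:**
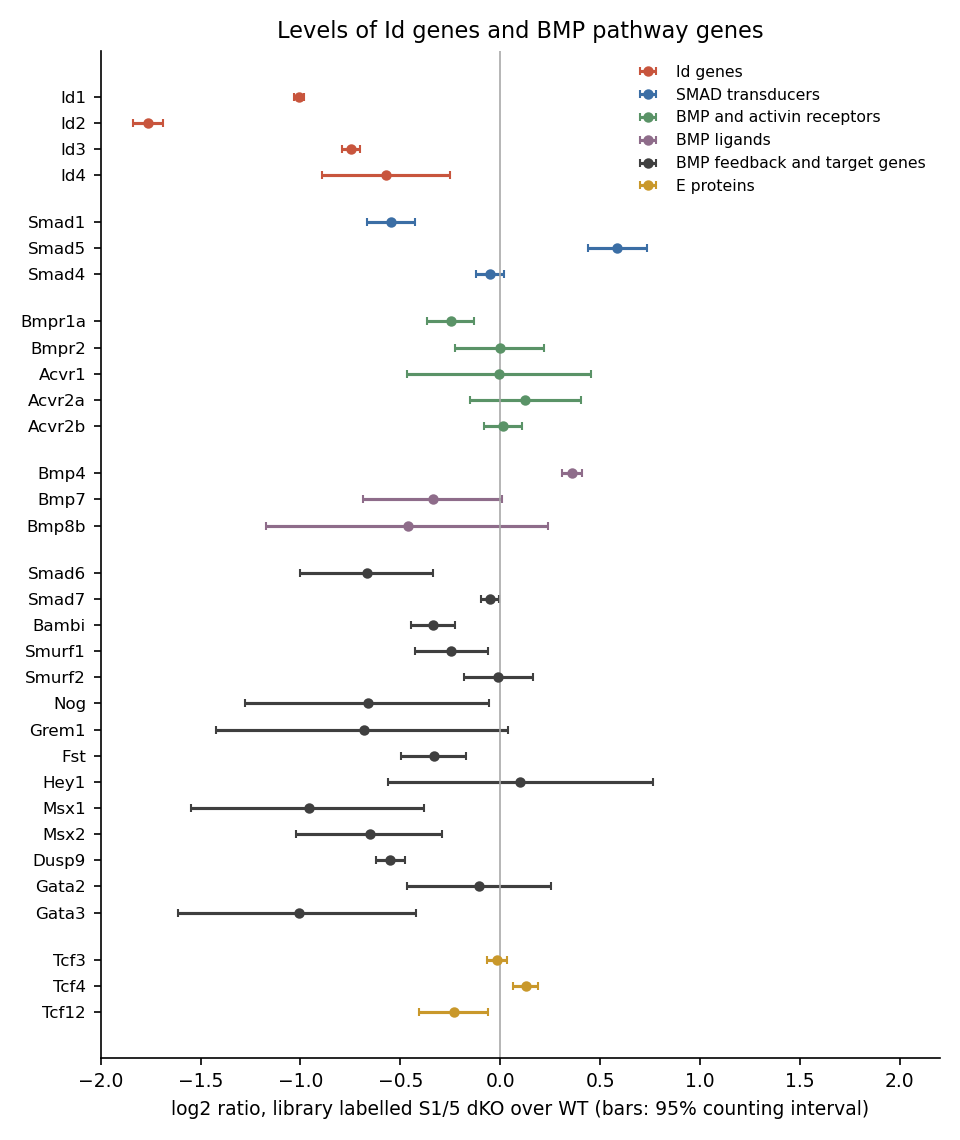
log2 ratio of the S1/5 dKO-labelled library over WT (x axis) for the 4 *Id* genes and for the SMAD, receptor, ligand, feedback and E protein genes with at least 50 UMIs (y axis, coloured by list). Bars are exact 95% counting intervals. *Id2*, at −1.76, lies farthest to the left, and *Smad5*, at 0.59, farthest to the right.

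From cell to cell, *Id1*, *Id2* and *Id3* varied far more than most genes of their level, in both libraries. A WT cell held a median of 6.5 *Id1* UMIs, with a 10th percentile of 0, a 90th percentile of 36 and a highest value of 210. A cell labelled S1/5 dKO held a median of 3, with a 10th percentile of 0, a 90th percentile of 15 and a highest value of 158. *Id3* had a median of 2 UMIs and a highest value of 96 in WT, and a median of 1 and a highest value of 46 in the S1/5 dKO-labelled library. *Id2* had a median of 1 UMI and a highest value of 40 in WT, and a median of 0 and a highest value of 12 in the other library. Cells with 0 UMIs of each of these genes were thus found in both libraries, and the highest cells were in WT.

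To set the cells on the same depth, each was thinned at random to 10000 UMIs, which left 2193 WT cells and 2843 S1/5 dKO-labelled cells. *Id1* was then detected in 72.9% of WT cells (71.0 to 74.8%) and in 55.1% of S1/5 dKO-labelled cells (53.3 to 57.0%). At their mean levels, Poisson counts with no difference between cells would give 96.3% and 78.4%. *Id3* was detected in 47.8% and 36.8% of cells, *Id2* in 34.2% and 14.6%, and *Id4* in 1.96% and 1.55%. Without thinning, the shares for *Id1* were 89.8% and 77.3%. The libraries differed at both ends of the distribution: 12.1% of WT cells held 8 or more *Id1* UMIs, against 2.74% of S1/5 dKO-labelled cells. Among cells with any *Id1* UMI, the mean was 4.54 UMIs in WT and 2.78 UMIs in the S1/5 dKO-labelled library. A lower mean by itself lowers both the share of cells with a UMI and this value, and detection includes UMIs from free RNA, so they do not show separate changes.

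**Figure D2:**
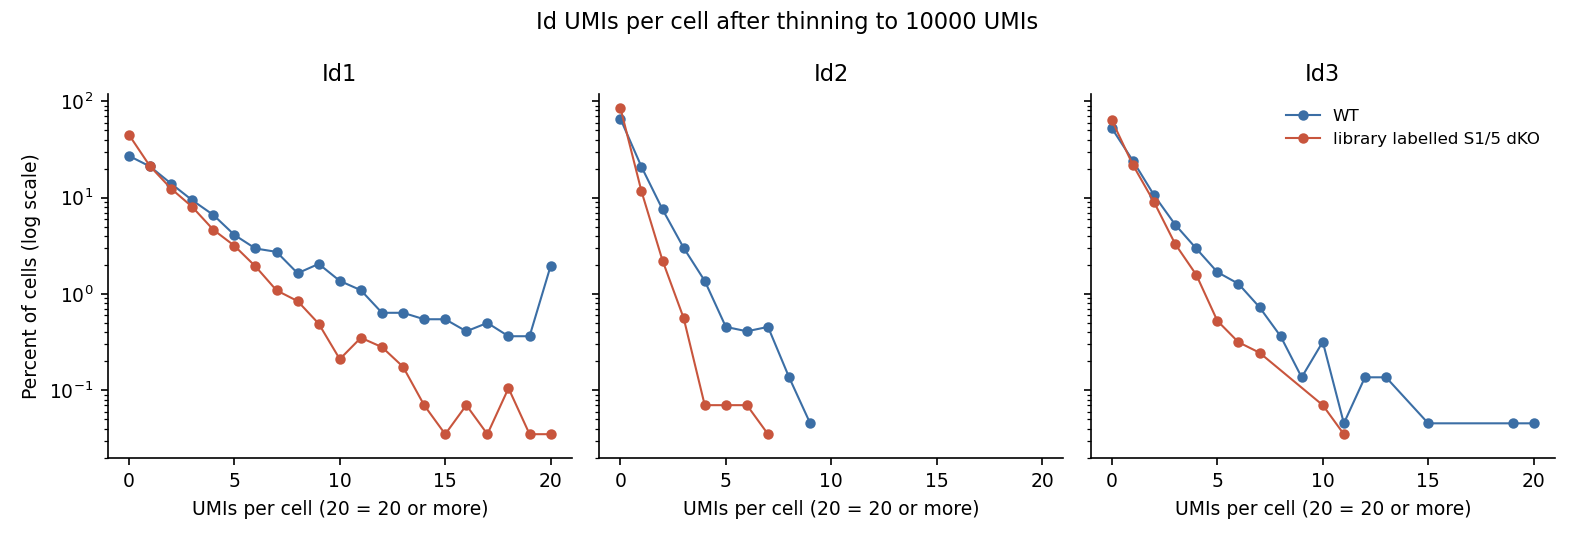
Percent of cells (y axis, log scale) by the number of *Id1*, *Id2* or *Id3* UMIs after thinning to 10000 UMIs per cell (x axis, 20 stands for 20 or more; values held by 0 cells are not drawn), for WT and the S1/5 dKO-labelled library. *Id1* was at 0 in 27.1% of WT cells and 44.9% of S1/5 dKO-labelled cells, and the WT curve lies above the other from 2 UMIs on.

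The spread was measured as the squared coefficient of variation left after Poisson counting error at each cell's depth is taken out, where 0 means that cells differ by counting error only. For *Id1* it was 1.57 in WT, the highest of the 223 genes at 80% to 125% of its mean level, whose median was 0.0324. The next genes were the metallothionein *Mt1* at 0.683 and the interferon-induced *Ifitm1* at 0.377. *Id3* had 1.56, the second highest of 526 genes after the tropomyosin *Tpm1* (1.91), and *Id2* had 1.63, the third highest of 811 genes after *S100a6* (5.23) and *Sfn* (2.90). Their neighbours had medians of 0.0542 and 0.0709.

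These values were much the same where the levels were lower. *Id1* had 1.56 in the S1/5 dKO-labelled library, the second highest of 431 genes, after the long non-coding RNA *Gm26917* (1.75). *Id3* had 1.37, the fifth highest of 770 genes, and *Id2* had 1.46, at rank 11 of 1141 genes. *Id4* counts were too sparse to place it: its spread was 1.15 in WT and 1.62 in the S1/5 dKO-labelled library, at rank 185 of 856 and 192 of 780 genes, and it turned negative when 1% of the S1/5 dKO-labelled cells were left out.

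**Figure D3:**
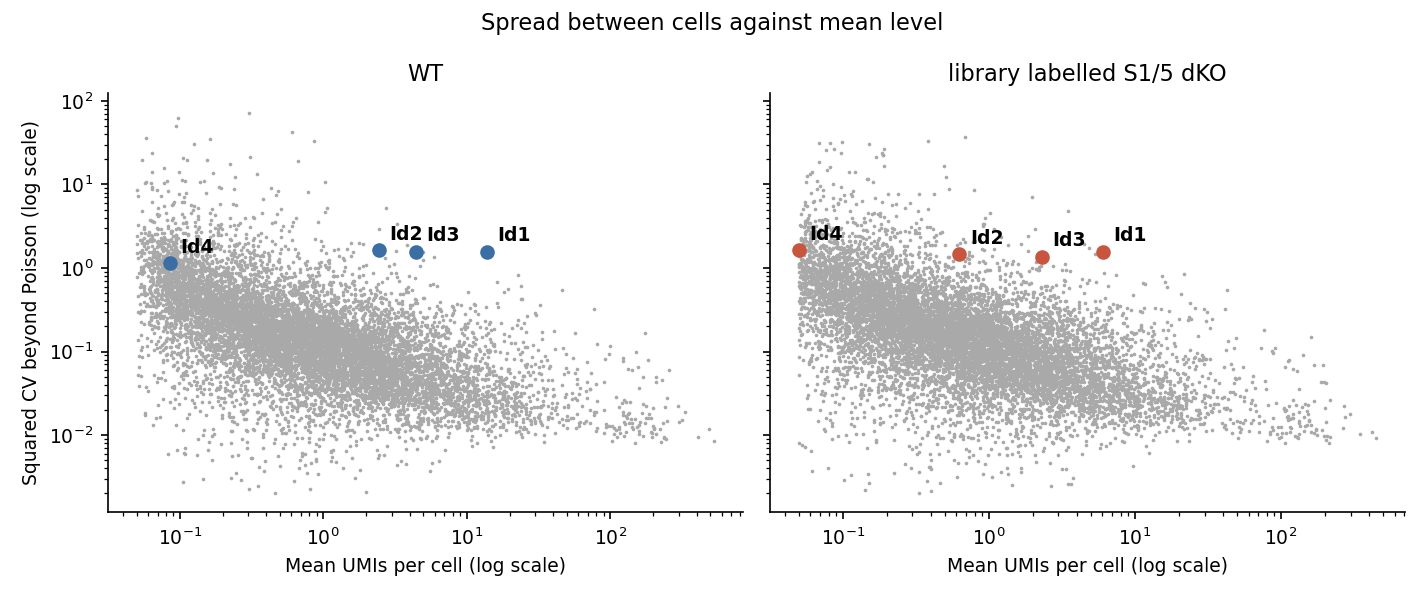
Squared coefficient of variation beyond Poisson (y axis, log scale) against mean UMIs per cell (x axis, log scale) for genes with a mean of at least 0.05 UMIs in both libraries, one grey point per gene (values under 0.002 or over 100 are not drawn) and the *Id* genes in colour. *Id1* (1.57), *Id2* (1.63) and *Id3* (1.56) lie near the upper edge in WT and, at 1.56, 1.46 and 1.37, in the S1/5 dKO-labelled library.

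How far the mRNA gathered in few cells was read by splitting each cell's UMIs at random into equal parts, ranking cells on one part and measuring the other. The 10% of WT cells ranked highest for *Id1* held 39.0% of its UMIs but 9.05% of all UMIs, and the lower 50% of cells held 13.4% of its UMIs. In the S1/5 dKO-labelled library the same shares were 35.5%, 9.88% and 14.0%. The top 10% of cells held 36.5% of *Id3* and 36.0% of *Id2* in WT, and 29.7% of *Id3* and 24.6% of *Id2* in the S1/5 dKO-labelled library. Ranking is noisier at fewer UMIs per cell, which lowers these shares. *Id2* had a mean of 2.45 UMIs per cell in WT and 0.630 in the other library. The shares therefore do not by themselves show a difference in concentration between the libraries.

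The libraries differed in whether the family members rose in the same cells. Pearson's correlations were taken across cells of log2(1 + UMIs) after thinning, over 2193 WT cells and 2843 S1/5 dKO-labelled cells, and are given as descriptions since the cells of 1 library share their culture and preparation. Across WT cells, r was 0.372 for *Id1* and *Id3*, 0.356 for *Id1* and *Id2* and 0.274 for *Id2* and *Id3*. Across S1/5 dKO-labelled cells, the same pairs had r of −0.011, 0.007 and −0.052. Covariance beyond Poisson, divided by the spreads above, gave 0.639, 0.652 and 0.599 in WT, and −0.043, 0.005 and −0.110 in the S1/5 dKO-labelled library. The positive relation of WT was thus not seen in the other library, where r was near 0 or, for *Id2* and *Id3*, slightly negative, although each gene still varied strongly between its cells. The difference itself was not tested, as each condition has 1 library.

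Among the 4608 genes ranked in WT by correlation with *Id1* (the other *Id* genes and those with a mean of at least 0.2 UMIs per thinned cell), *Id3* was first and *Id2* was second. For *Id2* the first was *Id1* and the second *Id3*, and for *Id3* likewise *Id1* and then *Id2*. The highest r of any gene outside the family with *Id1* was 0.129, and 99.5% of 4605 such genes lay between −0.1 and 0.1. Ranked in the same way in the S1/5 dKO-labelled library, *Id2* was at 1888 and *Id3* at 3120 of 4607 genes for *Id1*. These ranks are unstable: under other depths and filters *Id2* ranged from 953 to 2585 and *Id3* from 1564 to 1761. Thinning to 5000 UMIs or a minimum mean of 0.5 UMIs left fewer genes to rank, so those ranks are not out of 4607. *Id3* was at 4536 for *Id2*, and *Id2* at 4492 for *Id3*, near the lower end of all genes. *Id4*, with 43 WT cells above 0, had r of 0.055 with *Id1*, 0.099 with *Id2* and 0.105 with *Id3* in WT, and of 0.007, 0.009 and −0.002 in the other library.

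**Figure D4:**
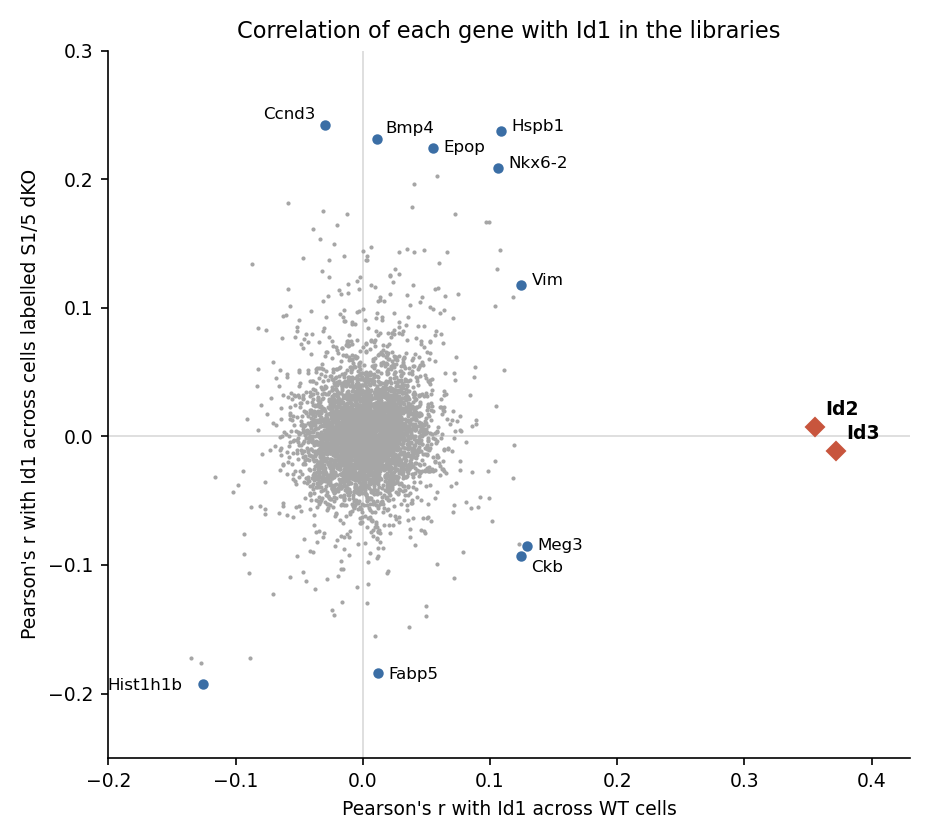
Pearson's r of each gene with *Id1* across WT cells (x axis) and across S1/5 dKO-labelled cells (y axis), 4490 genes in grey, with *Id2* and *Id3* as diamonds and some of the genes named in the text in blue. *Id2* (0.356) and *Id3* (0.372) stand alone on the right and lie near 0 on the y axis.

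The relation was graded over the range of *Id1*. In WT cells with 0 *Id1* UMIs, the mean was 0.285 *Id2* UMIs (0.243 to 0.331, 594 cells) and 0.611 *Id3* UMIs (0.550 to 0.677). In WT cells with 4 to 7 *Id1* UMIs it was 0.789 *Id2* UMIs (0.700 to 0.886, 360 cells) and 1.24 *Id3* UMIs (1.12 to 1.36). In WT cells with 16 or more it was 2.28 *Id2* UMIs (1.96 to 2.64, 79 cells) and 5.22 *Id3* UMIs (4.72 to 5.74). Both means were higher in each bin than in the bin before.

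The same bins of S1/5 dKO-labelled cells gave 0.199 *Id2* UMIs (0.175 to 0.225, 1276 cells) and 0.646 *Id3* UMIs (0.602 to 0.691) at 0 *Id1* UMIs. At 4 to 7 they gave 0.214 *Id2* UMIs (0.166 to 0.273, 308 cells) and 0.536 *Id3* UMIs (0.457 to 0.624). At 8 to 15 they gave 0.271 *Id2* UMIs (0.163 to 0.424, 70 cells) and 0.629 *Id3* UMIs (0.457 to 0.844), and only 8 cells had 16 or more. The intervals of *Id3* overlapped between the libraries at 0 *Id1* UMIs, at 1 (0.647 to 0.804 in WT and 0.580 to 0.710 in the other library) and at 2 to 3 (0.718 to 0.874 and 0.589 to 0.723), and did not overlap from 4 UMIs on. Those of *Id2* did not overlap in any bin, the last of which rests on 8 cells in the S1/5 dKO-labelled library. Since *Id2* and *Id3* vary between cells beyond Poisson, these intervals are narrower than the spread over cells, and no difference was tested.

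**Figure D5:**
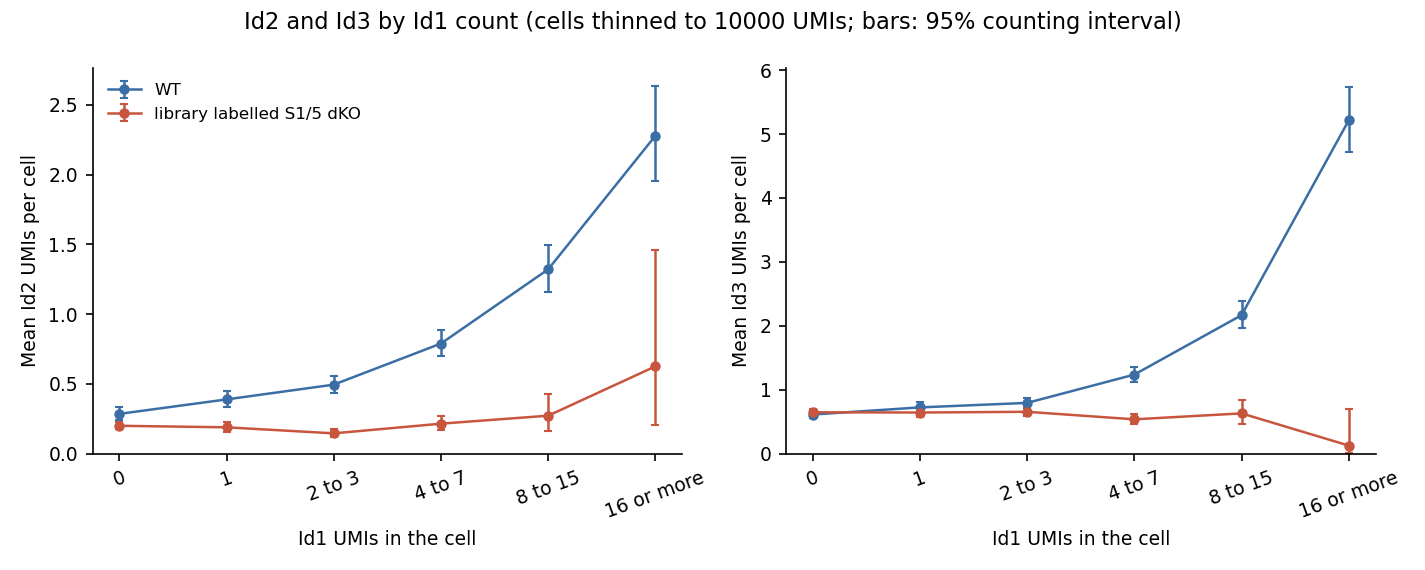
Mean *Id2* (left) and *Id3* (right) UMIs per cell (y axes) by the number of *Id1* UMIs in the same cell (x axes), after thinning to 10000 UMIs. Bars are exact 95% Poisson intervals, and the last point of the S1/5 dKO-labelled library rests on 8 cells. The WT means go from 0.285 to 2.28 for *Id2* and from 0.611 to 5.22 for *Id3*, and those of the other library stay below 0.7.

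Counted by detection, 17.5% of WT cells (15.9 to 19.2%) held all of *Id1*, *Id2* and *Id3*, and 13.0% (11.6 to 14.5%) held none, where independent detection at the same shares gives 11.9% and 9.30%. In the S1/5 dKO-labelled library, 2.43% of cells (1.89 to 3.06%) held all 3 and 24.3% (22.7 to 25.9%) none, beside 2.97% and 24.2% for independence. WT cells therefore held all or none more often than independence gives, and the S1/5 dKO-labelled cells did so at close to that rate.

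Lower counts by themselves weaken a correlation, so the WT counts of each member were thinned further to its mean level in the S1/5 dKO-labelled library, an alternative chosen after seeing the data. Over 20 such draws, r averaged 0.330 for *Id1* and *Id3* (lowest draw 0.305, highest 0.353), 0.238 for *Id1* and *Id2* (lowest 0.210, highest 0.270) and 0.186 for *Id2* and *Id3* (lowest 0.149, highest 0.219). All stayed above the values of the S1/5 dKO-labelled library. The draws match the mean level of each member only, not the share of free RNA. Whether level or free RNA accounts for the difference between the libraries was not tested. Without the 5% of cells with the most *Id1*, r in WT was 0.211, 0.259 and 0.167 for the same pairs.

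The relation was also present within subsets of WT cells. Over quartiles of depth, r of *Id1* and *Id2* ran from 0.340 to 0.365 in WT and from −0.017 to 0.033 in the S1/5 dKO-labelled library. Over quartiles of the summed UMIs of 43 S-phase genes it ran from 0.281 to 0.420 in WT and from −0.049 to 0.047 in the other library, and over quartiles of 54 G2/M genes from 0.329 to 0.389 and from −0.052 to 0.142. For *Id1* and *Id3* the ranges over all 12 quartiles lay within 0.302 and 0.424 in WT and within −0.105 and 0.087 in the S1/5 dKO-labelled library. The correlations of *Id1*, *Id2* and *Id3* with the summed S-phase or G2/M genes were between −0.040 and 0.069.

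*Sp5* is a target gene of Wnt signalling, and *Id1* differed in opposite directions between cells with and without a *Sp5* UMI. In WT the mean was 5.29 *Id1* UMIs (4.87 to 5.73) in the 111 cells with a *Sp5* UMI and 3.20 (3.13 to 3.28) in the 2082 cells without. In the other library it was 0.909 (0.791 to 1.04) in 232 cells and 1.59 (1.54 to 1.64) in 2611 cells. Since *Id1* varies between cells beyond Poisson, these intervals are narrower than the spread over cells, and the difference was not tested. *Id2* was higher in cells with a *Sp5* UMI in both libraries, with means of 0.946 (0.774 to 1.15) against 0.580 (0.547 to 0.613) in WT and 0.362 (0.289 to 0.448) against 0.175 (0.159 to 0.192) in the S1/5 dKO-labelled library. The correlation of *Id1* and *Id3* was 0.503 in WT cells with a *Sp5* UMI and 0.361 in those without, and 0.040 and −0.012 in the other library.

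The genes that varied with *Id1* outside the family differed between the libraries. In WT the 10 highest correlations were those of *Meg3* (0.129), an imprinted long non-coding RNA, *Vim* (0.124), which encodes the intermediate filament vimentin, *Ckb* (0.124), a creatine kinase, *Stmn1* (0.123), which encodes a tubulin-binding protein, *Ssbp3*, *Jund*, *Dynll1*, *Perp*, *Hspb1* and *Tcf15* (0.108). *Meg3*, *Ckb* and *Stmn1* had r of −0.085, −0.093 and −0.084 with *Id1* in the S1/5 dKO-labelled library. *Vim* (0.117), *Jund* (0.108), *Hspb1* (0.237) and *Tcf15* (0.145), which encodes a basic helix-loop-helix factor, were positive there too. The lowest in WT were *Hist1h2ap* (−0.135), *Hist1h2ae* (−0.127) and *Hist1h1b* (−0.126), histone genes used in DNA replication, whose near-identical copies can share reads, and *Utf1* and *Khdc3*. The same histone genes were also among the 5 lowest in the S1/5 dKO-labelled library, at −0.173, −0.176 and −0.193, with *Fabp5* (−0.184) and *Ldhb* (−0.172).

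Outside the family, correlations with *Id1* reached higher values in the S1/5 dKO-labelled library than in WT. They were led by *Ccnd3*, which encodes cyclin D3 (0.242, against −0.030 in WT), *Hspb1*, a small heat shock protein gene (0.237), *Bmp4* (0.231, against 0.011 in WT), *Epop* (0.224), *Nkx6-2* (0.208), *Hbegf* (0.203), *Tmsb4x* (0.197), *Dppa5a* (0.181), *Prr13* (0.178) and *Tdgf1*, a co-receptor of Nodal (0.175). The mean of *Id1* was 2.00 UMIs (1.92 to 2.08) in the 1242 S1/5 dKO-labelled cells with a *Bmp4* UMI and 1.17 (1.11 to 1.22) in the 1601 without. In WT it was 3.16 (3.03 to 3.28) in 810 cells and 3.40 (3.30 to 3.50) in 1383 cells. The share of WT cells with an *Id1* UMI went the other way, at 74.8% with a *Bmp4* UMI and 71.8% without. As for *Sp5*, these intervals are narrower than the spread over cells, and neither difference was tested. *Bmp4* had r of −0.063 and −0.031 with *Id2* and of −0.047 and 0.053 with *Id3*, WT first. Of the 10 pluripotency factors with enough UMIs per cell, 0 had r above 0.1 with *Id1* in WT and 5 did in the S1/5 dKO-labelled library: *Tbx3* (0.144), *Nanog* (0.139), *Klf5* (0.126), *Pou5f1* (0.115) and *Klf2* (0.109). *Sox2* was the lowest of the 10 there, at −0.074. Of 4604 genes outside the family, 97.7% lay between −0.1 and 0.1 with *Id1* in that library.

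The 5 genes most correlated with *Id2* outside the family in WT were *Spink1* (0.180), *Ckb* (0.158), *Meg3* (0.146), *Fgfbp1* (0.134) and *Stmn1* (0.134), which had 0.098, 0.037, 0.122, 0.056 and 0.069 in the S1/5 dKO-labelled library. There the highest were *Pim1* (0.128), *Meg3*, *Arl4a* (0.118), *Ddah1* (0.114) and *Hes6* (0.109). For *Id3* the highest in WT were *Ckb* (0.115), *Dynll1* (0.111), *Gnai1* (0.110), *Gpx4* (0.109) and *Fabp5* (0.108), and among the highest in the other library were *Hsp90aa1* (0.118), *G3bp2* (0.115), *Rasgrp2* (0.115) and *Spp1* (0.113). Of the 50 highest genes of each member, 16 (32%) were shared between the libraries for *Id2*, 9 (18%) for *Id3* and 8 (16%) for *Id1*. The lists were taken from 4490 genes, so unrelated lists of 50 would share few. Over all 4490 genes, the values in WT and in the other library correlated with r of 0.424 for *Id2*, 0.206 for *Id3* and 0.112 for *Id1*. No difference between these counts or values was tested.

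Set side by side over 4490 genes, the members' correlations were alike in WT and not in the other library. Across genes, which are not independent replicates, the values for *Id1* correlated with those for *Id2* (0.528) and *Id3* (0.463) in WT, and with r of −0.265 and −0.014 in the S1/5 dKO-labelled library. *Id2* and *Id3* gave 0.460 and −0.100. Members that correlate across the same cells share part of the scatter of every r, so these values partly follow from the pair correlations above. Whether they hold more than that was not tested. Of the other BMP target genes with enough UMIs per cell, *Dusp9* had r of 0.105, 0.119 and 0.085 with *Id1*, *Id2* and *Id3* in WT and of 0.024, 0.007 and 0.016 in the S1/5 dKO-labelled library. *Smad7* had −0.032, −0.068 and −0.005 in WT and 0.129, −0.036 and 0.039 in the other library. The E protein gene *Tcf3* was within 0.08 of 0 in all 6 cases, and so was *Tcf4*.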

How the data were processed

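Per the labels, single-cell libraries (Chromium 3′ v3) were made from WT and S1/5 dKO mESCs, 1 of each. The authors ran Cell Ranger 3.0.2 with mm10 as reference, and the deposited values are its raw UMI counts for every barcode of the kit. Cells were the barcodes with 1000 or more detected genes and no more than 5% of UMIs from mitochondrial genes, the filter of the study's methods. The libraries held 100446187 and 113937221 UMIs. Doublets were not removed. An alternative dropped cells whose UMIs exceeded 2 times their library's median, 135 WT cells and 140 others.

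Levels are UMIs summed over cells per 1000000 UMIs (CPM), with exact Poisson intervals, and ratios have exact conditional binomial intervals. Thinning drew 10000 UMIs per cell without replacement and left out 43 and 67 shallower cells. Correlations used log2(1 + UMIs) and genes with a mean of at least 0.2 UMIs. TMM factors came from edgeR 4.0.16 in R 4.3.3, S-phase and G2/M gene lists from Seurat 5.3.0, and the rest from Python 3.11.15 with numpy 2.4.6, scipy 1.17.1, pandas 2.3.3 and matplotlib 3.10.9. The procedures were tested on simulated data. Positions and UTRs are from GENCODE for GRCm38, promoter sequences from RefSeq.

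The members, the 13 gene lists and the tests were chosen with earlier results of these data known. Besides the members, *Smad1*, *Smad5* and the lists' genes, the rule for named genes took the 10 highest and 5 lowest correlations with *Id1*, the 5 highest with *Id2* and *Id3*, and up to 3 genes of highest spread near each member's level. A gene that this rule takes for *Id3* is not reported here. *Gm6175*, *A330033J07Rik* and *Gm49291* are named for the sequence they share or overlap. Alternatives were other scalings, filters, depths and Spearman's rho.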

Additional observations from a re-analysis of the deposited data

How the results depend on the processing

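All 4 log2 ratios stayed negative under 8 alternatives, and 26 of 32 values stayed within the counting interval. *Id1* moved to −1.09 with the mean over cells, −1.11 with thinning to 10000 UMIs and −1.05 without cells of over 2 times the median UMIs. Thinning moved *Id2* to −1.65 and *Id4* to −0.25, and the mean over cells moved *Id3* to −0.82. Of all genes, 59 were at least 2-fold lower and 119 higher. A minimum of 20 UMIs gave 171 and 231, a minimum of 500 UMIs 7 and 28.

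The spread of *Id1*, *Id2* and *Id3* stayed within 1.5 times its value under 4 alternatives, except for *Id2* in the S1/5 dKO-labelled library, at 2.77 after thinning. *Id4* turned to −1 after thinning in WT, where no cell held more than 1 UMI, and to −0.71 in the other library without the 1% of cells with the most.

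Correlations count as moved when they differ by over 0.1. Without thinning, r in WT was 0.485 (*Id1* and *Id2*), 0.474 (*Id1* and *Id3*) and 0.388 (*Id2* and *Id3*). Of the alternatives chosen after seeing the data, thinning to the other library's level moved *Id1* and *Id2* to 0.238. Cells with a *Sp5* UMI gave 0.503 for *Id1* and *Id3* and 0.441 for *Id2* and *Id3*, and cells with a *Bmp4* UMI 0.165 for the latter. Leaving out the 5% of cells with the most *Id1* gave 0.211 for *Id1* and *Id3* and 0.167 for *Id2* and *Id3*. The second quartile of G2/M gene UMIs in the S1/5 dKO-labelled library gave 0.142 for *Id1* and *Id2*. None of these changed the sign of a WT correlation. The ranks of *Id3* and *Id2* for *Id1* in WT stayed first and second, and swapped without thinning. In the S1/5 dKO-labelled library, 5 of 6 ranks moved by over 1.5 times, to between 953 and 1761, some of them among fewer ranked genes.

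No paired analysis was possible because each condition has 1 library. For the same reason the spread between cultures is unknown. *Id4*, with 191 and 146 UMIs, is too sparse for statements on its spread or correlations. The causes of these changes were not tested.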
